A study of Enchytraeus albidus with 21 samples.

Results

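The comparison described here sets 3 samples of Enchytraeus albidus kept for 2 days in acetone-spiked soil against 3 samples collected from the culture at day 0. These are 6 of the 21 arrays of the series, chosen by their sample titles in experiment 1. A sample was whole-body RNA pooled from 10 adults that bore a developed clitellum. Acetone worms lived in vessels of 25 g moist soil at 20 °C under a day of 16 h light and 8 h dark. The culture worms never entered a test vessel. The groups therefore differ in soil, in 2 days of time and in acetone at once, and these cannot be told apart with the 6 arrays alone. The water control of the same experiment, 3 samples kept for 2 days in soil without acetone, is used as a reference between them. The amount of acetone and the medium of the culture are not given in the sources used here.

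Enchytraeus albidus, the white potworm, is a small annelid of soil and decaying matter that is widely used in soil ecotoxicology. Acetone is a common carrier for chemicals that dissolve poorly in water, so solvent controls accompany many such tests. The clitellum is the glandular band of sexually mature annelids, from which the egg cocoon is made. A comparison of a solvent control with untransferred worms shows how far a test vessel with carrier lies from the animals' usual state, before any test chemical is added.

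RNA was measured on single-colour (Cy3) arrays with 1035 worm probes, each in 14 or 15 spots. A level below is the log2 signal of a probe relative to the 75th percentile of its array, and 0 means a signal equal to that percentile. The signal at that percentile was 1722 to 3720 on the acetone arrays and 1552 to 3420 on the culture arrays, with overlapping ranges. Between 847 and 881 probes were well above background with acetone, and 869, 974 and 599 in culture replicates 1, 2 and 3. The dimmest tested probe reached −7.07 on culture replicate 3 but −9.22 on replicate 1 and −9.12 on replicate 2, so the range of that array ended higher. The test covered the 883 probes that rose clearly over background on all arrays of 1 or more of the 3 groups in experiment 1. The files pair no probe with a gene or a sequence, so what the probes encode is not stated, and no tissue marker could be checked against the labelled whole body. Whole-body RNA cannot tell more transcript per cell from more cells of one kind. Only 3 arrays per group limit the precision.

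After 2 days in acetone soil, 55 of 883 probes (6.23% of those tested) differed from worms of the culture at an adjusted p under 0.05 in limma. Of these, 20 were higher with acetone (2.27%) and 35 were lower (3.96%), so that 36.4% of calls were higher. The higher probes differed by up to 216-fold. Of the lower probes, 32 were well above background on at least 1 acetone array, and these differed by up to 4.46-fold. The folds of the other 3 are limited by the dimmest measurable signal of the acetone arrays. The median probe over all 883 lay at −0.14 log2 units, which was not removed from the differences given here. The acetone and culture samples did not overlap for 198 probes (22.4%), all 55 called probes among them, and 198 probes had an unadjusted p under 0.05. With arrays centred on their median, 40 probes passed, 23 higher and 17 lower (57.5% higher), and the median probe lay at 0.023.

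**Figure D1:**
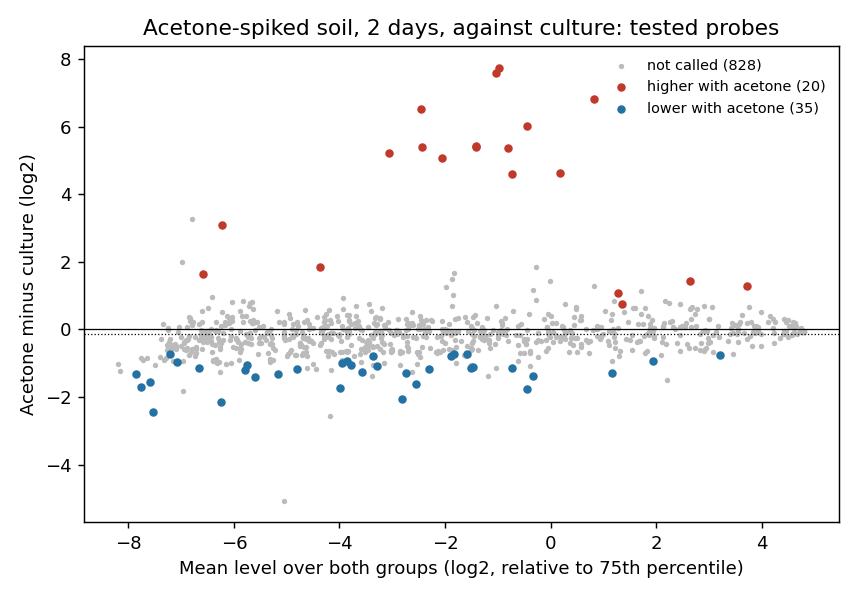
Difference between acetone and culture (y axis, log2) against the mean level of both groups (x axis, log2 relative to the 75th percentile of the array) for the 883 tested probes, 1 point each. The 20 probes called higher are red, the 35 called lower are blue, and the dotted line marks the median difference of −0.14. Of the red points, 14 lie above 3 log2 units, while the lowest blue point lies at −2.44.

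A group of 14 probes (1.59% of those tested) was called higher by over 4-fold, a limit set after the calls were known. They differed by 8.55-fold to 216-fold, with a median of 42.3-fold. After normexp background correction all 14 passed as well, at 2.22-fold to 109-fold with a median of 27.1-fold, so that the smallest fell under 4-fold. The median level of these 14 probes was −4.32, −4.12 and −4.55 in culture replicates 1, 2 and 3, and 1.89, 0.96 and 1.27 in acetone replicates 1, 2 and 3. Their median thus lay below the 75th percentile of the array in culture and above it with acetone. All 14 were well above background on every acetone array and 7 of them on every culture array. For 2 of the 14 the filter on dim probes was passed only through the acetone samples, which favours a difference. Many of the 14 moved together from sample to sample, so they are not 14 separate observations. Counts out of the 14 are a description. The 6 other higher probes rose by 1.69-fold to 3.57-fold.

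Contig8 rose the most of the called probes. Its level was 2.93, 2.96 and 2.79 in the 3 acetone samples and −4.99, −4.29 and −5.29 in the 3 culture samples. The acetone samples lay within 0.2 log2 units of each other, far from all samples of the culture. The log2 difference was 7.75 ± 1.16 (SE; limma, adjusted p = 0.00508), or 216-fold. It was 6.76, or 109-fold, after normexp background correction. The SE pools the spread of all 3 groups in the fit, and the SD of Contig8 was 3.02 in the water controls. With only the acetone and culture arrays in the fit the SE was 0.295 (limma, adjusted p = 3.6e-07). Contig8 was above background on 3 of 3 acetone arrays and on 2 of 3 culture arrays. Ealb_Met_P7_C1_SP6_2090602 was next, at 2.72, 2.75 and 2.82 with acetone and −4.99, −4.50 and −5.04 in culture. It rose by 7.61 ± 1.19 (SE; adjusted p = 0.00576), or 195-fold, and by 6.65 log2 units after normexp background correction. The levels of these 2 probes nearly coincided in each of the 6 samples, and they should not be counted as independent.

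The large rises did not all share the same order of samples. Contig19, chosen after its values were seen like the other probes named from here on unless said otherwise, was at 1.78, 3.61 and 2.26 with acetone and at −3.46, −3.06 and −3.87 in culture. Its log2 difference of 6.01 ± 0.67 (SE) had the smallest adjusted p of all 883 probes (0.00327). Acetone replicate 2 was the highest of the 3. Contig126 (1.15, 2.41 and 1.15 with acetone) and P1_G2_T7_1328822 (2.11, 3.42 and 1.94) also peaked in acetone replicate 2. They rose by 4.61 ± 0.55 and 4.64 ± 0.55 log2 units (SE; adjusted p = 0.00327 each). Ealb_Pest_P6_H1_SP6_2092020 showed another order, with acetone replicate 2 the lowest at 0.71, against 2.00 in replicate 1 and 1.17 in replicate 3. In culture it was at −4.23, −3.91 and −4.19, and the log2 difference was 5.40 ± 0.81 (SE; adjusted p = 0.00508). Ealb_Pest_P7_C2_SP6_2092135 followed it to within 0.056 log2 units on all 21 arrays, so these 2 probes do not count as separate observations.

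**Figure D2:**
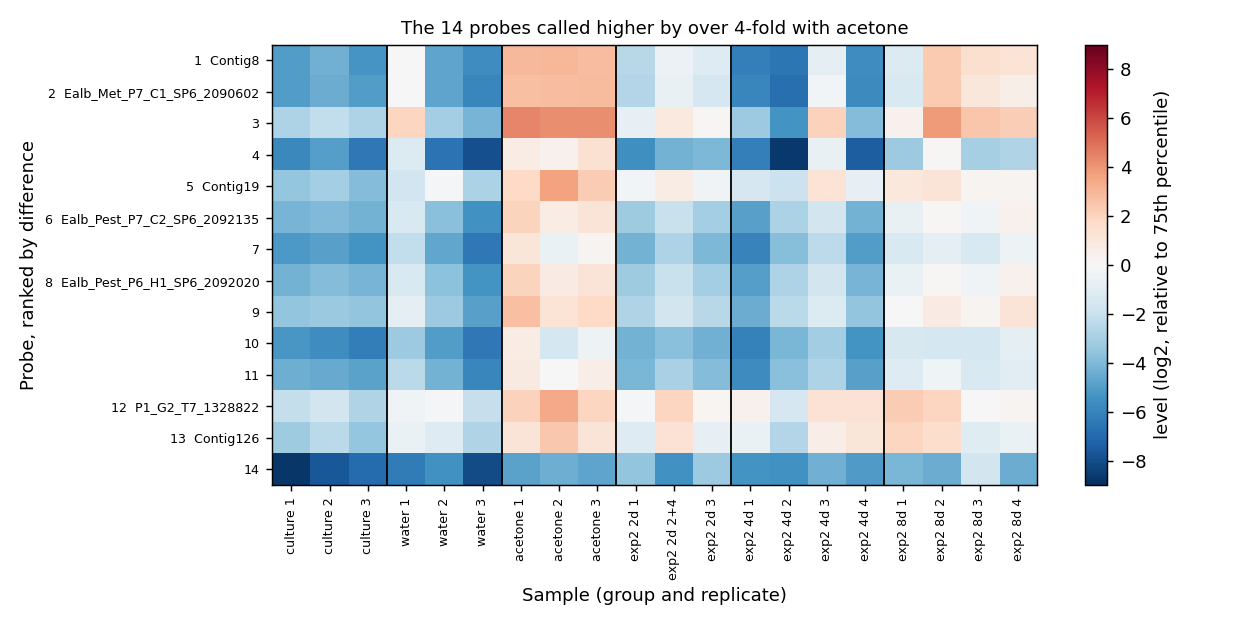
Level (colour, log2 relative to the 75th percentile of the array) of the 14 probes called higher by over 4-fold, ranked by their difference from top to bottom, in all 20 samples of the series (columns, grouped by experiment, treatment and day; 2 near-identical arrays of the 2-day group of experiment 2 were averaged). For every probe the 3 acetone columns are redder than the 3 culture columns, and water control 3 is as blue as the culture for most. The medians over the 14 probes were −4.55 to −4.12 in culture and 0.96 to 1.89 with acetone.

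Among the smaller rises, Contig121 was a bright probe in both groups. It was at 4.35, 4.67 and 4.03 with acetone and at 3.15, 3.15 and 2.92 in culture, without overlap. It rose by 1.28 ± 0.21 log2 units (SE; adjusted p = 0.00642). On acetone replicate 3 the brightest tested probe reached only 4.19, and 53 probes were saturated. Whether the level of Contig121 was capped on that array was not tested. The water controls were at 2.93, 3.18 and 3.04, within the range of the culture or next to it. P5_D7_T7_1329838 rose by 0.75 ± 0.18 log2 units (SE; adjusted p = 0.0389), the smallest of the 20 differences. It was at 1.64, 1.68 and 1.88 with acetone and at 0.95, 1.15 and 0.83 in culture, and was higher still in the water controls, at 2.32, 2.41 and 2.13. Of the 883 probes it was the only one called between the water control and the culture in the same fit (0.113% of probes). Its acetone call passed in 6 of 24 alternative settings.

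The 32 lower probes with a measured acetone level differed by 1.64-fold to 4.46-fold with a median of 2.21-fold, and 2 of them by over 4-fold. The other 3 of the 35 were well above background on no acetone array. Set against the dimmest measurable acetone signal, they were 1.41-fold, 1.72-fold and 2.60-fold lower. In culture these 3 were well above background on 1, 2 and 2 of 3 arrays, so these folds are not strict minima. The median level of all 35 lower probes was −2.87, −2.87 and −3.26 in culture replicates 1, 2 and 3 and −4.04, −4.23 and −4.12 with acetone. On all 6 arrays 24 of the 35 were well above background. The count of lower calls moved with single arrays of all 3 groups. It was 63 without culture replicate 3, the array with the fewest probes above background, 8 without culture replicate 1 and 7 without culture replicate 2. It was 12 without acetone replicate 1, 18 without acetone replicate 3 and 18 without water control replicate 3. With only the acetone and culture arrays in the fit, 38 probes were called, 19 higher and 19 lower. Of the 35 lower probes, 18 passed in that fit.

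By the rule for named probes, the 2 lower probes with the largest differences were dim. Ealb_Met_P2_D6_SP6_2090275 was at −8.62, −8.50 and −9.16 with acetone, with 0 of 3 arrays well above background, and at −5.78, −6.27 and −6.92 in culture, with 2 of 3 above it. The fitted difference was −2.44 ± 0.33 (SE; limma, adjusted p = 0.00463). Set against the dimmest measurable signal of each acetone array, it was 2.60-fold lower. This is not a strict minimum, since the culture mean includes an array not well above background. P3_D10_T7_1329721 was at −6.62, −7.14 and −8.21 with acetone and at −4.98, −4.95 and −5.57 in culture, a difference of −2.16 ± 0.39 (SE; adjusted p = 0.0112). It was above background on 2 of 3 arrays in each group. Neither passed in the authors' deposited values, where they differed by −0.77 and −1.36 (adjusted p = 0.425 and 0.0688), nor after normexp background correction, where they differed by −0.44 and −0.78 (adjusted p = 0.465 and 0.129). P3_D10_T7_1329721 also lost the threshold without culture replicate 1 and without culture replicate 2 (adjusted p = 0.0556 and 0.0553).

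Brighter probes fell as well. Contig129 was at −4.45, −3.38 and −3.72 with acetone and at −1.90, −1.57 and −1.92 in culture. It fell by 2.05 ± 0.29 log2 units (SE; adjusted p = 0.00508). P3_A9_SP6_1371430 was at −1.51, −0.88 and −1.59 with acetone and at 0.71, 0.02 and 0.59 in culture. It fell by 1.77 ± 0.26 log2 units (SE; adjusted p = 0.00508). For both, all 3 acetone samples lay below all 3 culture samples, and both passed in 23 of 24 alternative settings. In control soil of experiment 2, without acetone, Contig129 varied far more, from −3.05 to 5.15 at 4 days (SD 3.58, n = 4). P3_A9_SP6_1371430 ranged from −1.28 to −0.12 in the same 4 samples (SD 0.55).

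**Figure D3:**
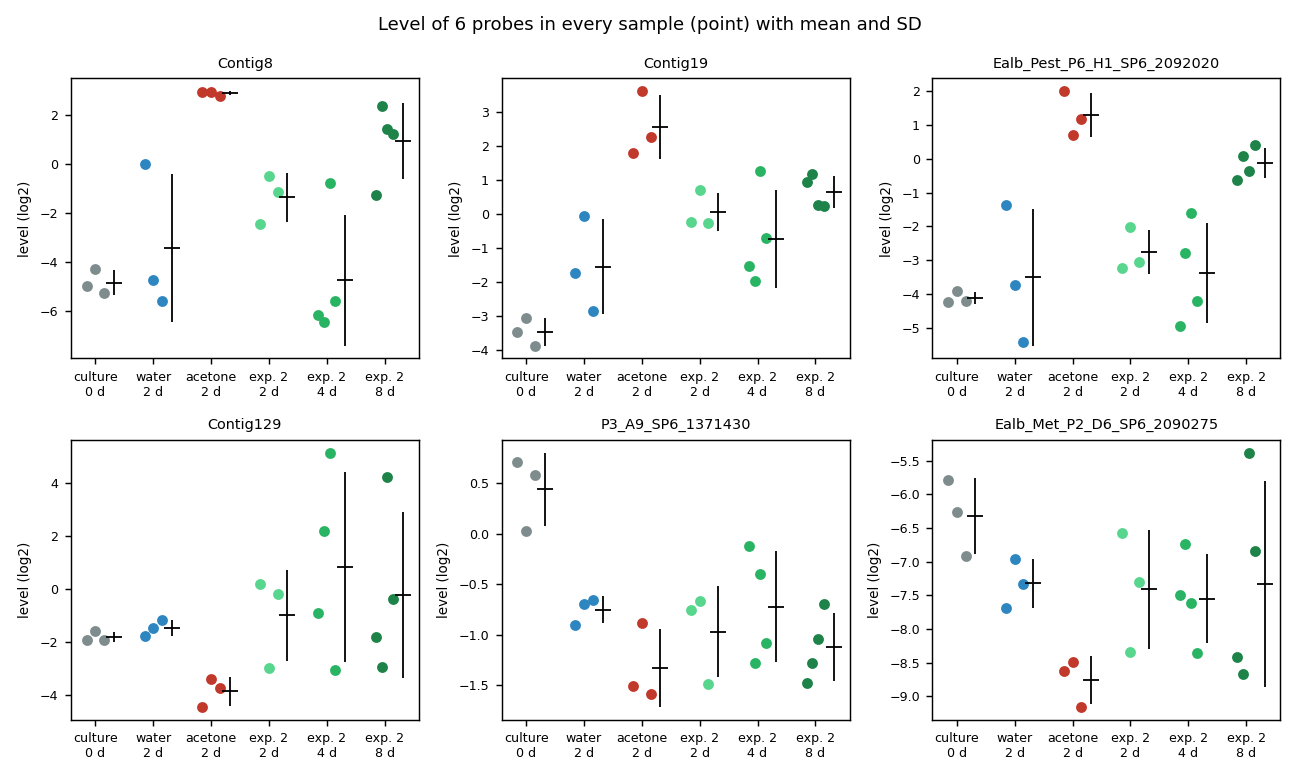
Level (y axis, log2 relative to the 75th percentile of the array) of 3 probes that rose (top) and 3 that fell (bottom) in each sample (points; x axis, group and day), with the mean and SD of each group as a cross and a bar. Each panel has its own y axis. Acetone samples lie beyond all culture samples in every panel, and the water controls of Contig8 spread from −5.60 to 0.01.

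The water control shows where worms after 2 days in soil without acetone stood on these same probes. Its 3 arrays shared no scan day and no slide with the other groups. Differences from the water control therefore cannot be told apart from scan day and slide. The 3 differences (acetone and culture, water control and culture, acetone and water control) come from 1 fit and share samples, so each is given as a value beside the others. The median over the 14 large rises was 5.40 log2 units between acetone and culture, 0.78 between water control and culture and 4.75 between acetone and water control. Over the 35 lower probes the same medians were −1.16, −0.51 and −0.73, and over all 883 probes −0.14, 0.12 and −0.31. Of the 14 large rises, 0 passed between water control and culture and 13 between acetone and water control, and of the 35 lower probes 0 and 12. Over all 883 probes the counts were 1 and 55 (0.113% and 6.23%). The 14 and the 35 were chosen by their difference between acetone and culture. The same acetone arrays enter the comparison with the water control, so the counts within these sets are a description and not a test.

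Single probes differed in where the water control lay. Contig129 was at −1.78, −1.46 and −1.15 in the water controls, a log2 difference of 0.33 from culture that did not pass (adjusted p = 0.576), and it was 2.38 log2 units higher there than with acetone. P3_A9_SP6_1371430 was at −0.90, −0.69 and −0.66 in the water controls. Those samples lay between the culture and most acetone samples, at −1.19 from culture (adjusted p = 0.109), and acetone lay −0.58 from them (adjusted p = 0.167). Neither of these steps passed by itself, although the difference between acetone and culture did. Ealb_Met_P2_D6_SP6_2090275 differed by −1.003 between water control and culture and by −1.44 between acetone and water control.

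The large rises varied more between the water controls than between samples of the other groups. Over the 14 probes the median SD was 0.366 in culture and 0.653 with acetone, against 2.02 in the water controls (n = 3 each). The SD exceeded 1 log2 unit for 14 of the 14 in the water controls, for 1 with acetone and for 0 in culture. Over all 883 probes the water controls, the only group here read on a single scan day, were the least variable. Their median SD was 0.199, against 0.287 in culture and 0.366 with acetone. The median SD of the 14 probes was thus above that of all probes in each group. Contig8 was at 0.01, −4.73 and −5.60 in the 3 water controls. Water control replicate 1 was the highest for it, and the median of the 14 probes was −1.32 in that replicate and −4.01 and −5.51 in the other two. In replicate 1 all 14 probes lay above the highest culture sample, in replicate 2 it was 10 and in replicate 3 it was 1. Over all 883 probes on the acetone and culture arrays, the scatter among spots was far smaller. There the median SD of a probe's spots on an array was 0.0943, which gives its mean a median SE of 0.0253. The water control arrays did not enter these medians.

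Experiment 2, in which worms spent 2, 4 or 8 days in control soil without acetone, shows the range of the 14 probes outside acetone. Their median level per sample was −2.95 to −1.84 at 2 days (3 samples, since arrays 2 and 4 were nearly identical and were averaged), −5.17 to −1.005 at 4 days (4 samples) and −0.92 to 0.43 at 8 days (4 samples). With acetone it was 0.96 to 1.89. All 8-day samples had the 14 probes above the highest culture sample, and 2 to 4 of the 14 at or above the lowest acetone sample. Contig8 averaged −1.37 ± 1.01 after 2 days (SD, n = 3), −4.76 ± 2.68 after 4 days (SD, n = 4) and 0.95 ± 1.56 after 8 days (SD, n = 4). Its acetone mean was 2.89 ± 0.09 (SD, n = 3). Ealb_Pest_P6_H1_SP6_2092020 averaged −0.13 ± 0.45 (SD, n = 4) at 8 days and 1.29 ± 0.65 (SD, n = 3) with acetone. Higher levels of these probes than in culture were thus also measured in samples without acetone. Of the 35 lower probes, 3 to 18 per sample of experiment 2 lay at or below their highest acetone sample. The 2 experiments were not tested against each other here. Of the 8-day arrays, replicates 3 and 4 were read on the scan day of acetone replicates 2 and 3, and replicates 1 and 2 on another day. The medians of the 14 probes were −0.92 and 0.43 on the latter and −0.34 and 0.23 on the former. Replicate 3 at 8 days shared its slide with acetone replicate 3 and had 669 probes above background. Replicates 1 and 2 at 4 days were read on a scanner model (G2505C) used for no other array.

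Calls came from all forms of probe identifier. Of 153 tested probes named as contigs, 13 were called (8.50%), 8 higher and 5 lower. Of 290 with the prefix Ealb_Met, 17 were called (5.86%), 3 higher and 14 lower. Of 165 with the prefix Ealb_Pest, 12 were called (7.27%), 5 higher and 7 lower. Of 275 that give only a plate position, 13 were called (4.73%), 4 higher and 9 lower. The 14 large rises were 6 contigs, 3 Ealb_Met, 4 Ealb_Pest and 1 plate-only probe. These classes were read from the identifiers with results known and are given as a description. By brightness, the 20 higher calls were spread over 4 bins of 220 or 221 probes, ordered from dim to bright, as 2, 2, 11 and 5, and the 35 lower ones as 11, 11, 10 and 3. The median difference was −0.22 in the dimmest bin and −0.05 in the brightest.

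Arrays of the 2 groups were compared pair by pair over all tested probes. The log2 differences had a median absolute deviation of 0.510 to 0.720 between an acetone and a culture array, 0.547 to 0.675 between 2 acetone arrays and 0.416 to 0.542 between 2 culture arrays. The share of probes more than 4-fold apart was 2.83% to 4.08% between the groups, 0.793% to 1.25% among acetone arrays and 0.680% to 0.793% among culture arrays. The share more than 2-fold apart was 13.3% to 22.5% between the groups, 7.81% to 16.2% among acetone arrays and 2.83% to 12.2% among culture arrays. Pearson's r across probes, which are not independent replicates, was 0.945 to 0.963 between the groups, 0.979 to 0.985 among acetone arrays and 0.978 to 0.986 among culture arrays. The between-group range lay apart from both others for the 4-fold share and for r, overlapped the acetone range alone for the 2-fold share, and overlapped both for the median absolute deviation.

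Acetone replicate 1 and culture replicates 1 and 3 were read on 1 scan day, acetone replicates 2 and 3 on another and culture replicate 2 on its own. No slide held both groups. The water controls were all read on a further scan day, on slides without acetone or culture arrays. Within the shared day, with 1 acetone sample against 2 culture samples, Contig8 differed by 8.07 log2 units, Ealb_Met_P7_C1_SP6_2090602 by 7.73, Contig129 by −2.53, P3_A9_SP6_1371430 by −2.16, Ealb_Met_P2_D6_SP6_2090275 by −2.27 and P3_D10_T7_1329721 by −1.35. With scan day as a block in limma no probe passed (smallest adjusted p = 0.0670, 113 probes with an unadjusted p under 0.05). In that fit the difference rests on these 3 arrays alone, with 4 residual degrees of freedom.

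The number of calls depended on single arrays. It was 22 without culture replicate 1 or without culture replicate 2, 28, 34 and 36 without acetone replicate 1, acetone replicate 3 or water control replicate 3, and 86 without culture replicate 3. In these 6 fits 11 to 14 of the 14 large rises passed.

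**Figure D4:**
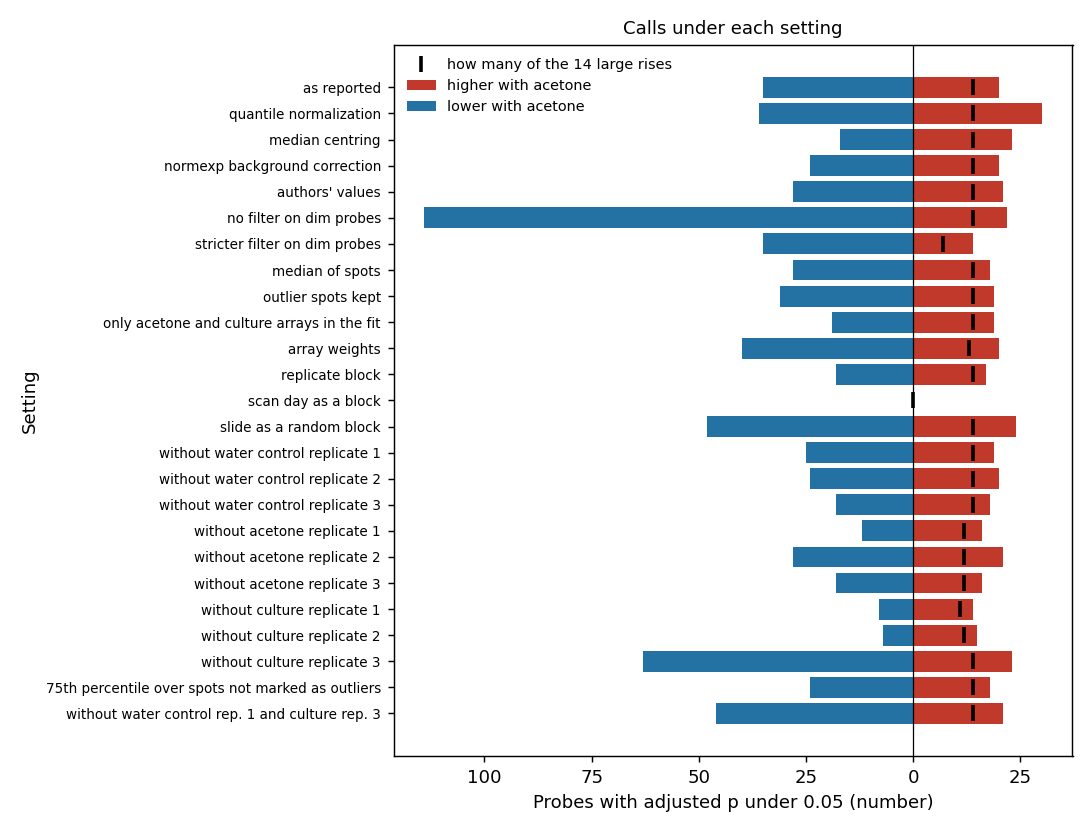
Number of probes called (x axis) higher (red bars to the right) and lower (blue bars to the left) with acetone than in culture, as reported and under each alternative setting (y axis), with a black mark at how many of the 14 large rises passed. The lower calls range from 0 to 114 and the higher calls from 0 to 30. The black mark lies between 11 and 14 in all settings but the scan-day block, at 0, and the stricter filter, under which 7 of the 14 were tested and 7 passed.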

How the data were processed

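Agilent Feature Extraction 10.5.1.1 gave the spot intensities, per the file headers and the submitters' processing notes. The deposited processed intensity had its background subtracted and was detrended array by array, with no normalization across arrays, per the file headers. The authors also deposited log2 values, 1 per probe and array. They correlated at 0.980 to 0.999 with log2 processed signals of their arrays, which settles scale and direction, and had column medians of 7.92 to 7.98. How the authors normalized them is not stated in the sources read here.

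Arrays carried 15744 spots including 536 controls. Control spots and outlier spots (3.10% to 6.37% in experiment 1) were left out. Log2 processed signals were averaged per probe, and the 75th percentile over worm spots was subtracted. A probe was tested if at least a share of 0.5 of its usable spots was well above background on all arrays of 1 or more of the 3 groups, which left 883 probes and excluded 152. The 9 arrays of experiment 1 entered 1 fit with 3 groups in limma 3.58.1 (R 4.3.3; lmFit and eBayes, two-sided tests), with p-values adjusted by Benjamini-Hochberg over all 883 probes, a threshold of 0.05 and 6 residual degrees of freedom. All adjusted p-values come from limma. A fold against a group with 0 arrays well above background was set against a floor. The floor uses, per array of that group, whichever is higher, the signal of the probe itself or the lowest among probes well above background. Such a fold is a lower bound only where the other group was well above background on all its arrays.

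Without annotation, the rule for named probes took the 2 higher and 2 lower called probes with the largest difference and no overlap. The comparison, the sets of probes and the alternatives were chosen with earlier results of these data known. Groups came from sample titles. Replicates came from separate vessels or samplings, per the labels' protocols. On simulated data with 200 of 883 probes changed, the fit found 62.8%, 94.3% and 98.0% of those changed by 1, 2 and 3 log2 units, and 4.22% of calls were false. The simulated probes were independent, had the same SD in all groups and carried no effect of array, slide or scan day. The 200 changed probes also outnumber the 55 called in the data. These shares therefore need not hold for the measured data. Normexp correction (offset 50) used the deposited median spot and background intensities in place of mean spot intensities. Replicate numbers did not pair the samples of the 2 groups.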

Additional observations from a re-analysis of the deposited data

Results flagged for a closer look

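In the 4-day group of experiment 2, which the comparison does not use, 1 sample stood far from the other 3 for both of the probes that rose the most. Contig8 was at −0.78 in 4-day replicate 3, and the nearest of the other 3 samples was at −5.62. Ealb_Met_P7_C1_SP6_2090602 was at −0.25 in the same sample, and the nearest other was at −5.71. These were 2 of 30 groups of samples examined by Dixon's test, of which chance flags about 1 in 20. Since the levels of these 2 probes nearly coincide, they are not separate observations. The cause was not tested.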

How the results depend on the processing

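The alternatives left most results on the same side of the threshold, with the exceptions given here. The count of 55 changed probes became 136 with no filter on dim probes (1035 tested, 22 higher and 114 lower), 35 with a replicate block and 0 with scan day as a block, and it ranged from 22 to 86 when any 1 replicate was left out. Culture replicates 1 and 2 gave the lowest count and culture replicate 3 the highest. Under 15 of the 24 alternatives it lay between 38 and 72. The median log2 difference over tested probes of −0.14 was −0.030 after quantile normalization, 0.023 with median centring and −0.025 in the authors' values, and ranged from −0.22 to −0.11 with 1 replicate left out. Same-numbered acetone and culture samples did not deviate together (correlations of −0.03, −0.32 and −0.17), so the replicate block carries no pairing of these 2 groups. The correlations were 0.07, 0.20 and 0.24 for acetone and water controls, and −0.17, −0.18 and −0.17 for culture and water controls. The replicate block kept 34 of the 55 probes. Quantile normalization gave 30 higher and 36 lower calls, normexp 20 and 24, the authors' values 21 and 28. With slide as a random block 72 passed, but the fitted correlation was −0.25, which shrinks errors between slides by construction. Contig8 and Ealb_Met_P7_C1_SP6_2090602 passed in 22 of 23 alternatives, P3_D10_T7_1329721 in 18 and Ealb_Met_P2_D6_SP6_2090275 in 20; the exception for the first pair was the scan-day block (adjusted p = 0.156 and 0.205). The large rises under normexp ranged from 1.15 to 6.76 log2 units. The cause of these shifts was not tested, except that the scan-day block uses 3 arrays and the filter changes which probes are tested. After the data were seen, 2 alternatives were added: the percentile over spots not marked as outliers gave 42 calls, and leaving out water control replicate 1 and culture replicate 3 together gave 67. Signal over background limits the dim lower probes, 3 of which were well above background on no acetone array.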

Other observations

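Of the 21 probes (2.38% of those tested) whose fitted difference between acetone and culture was over 4-fold, 4 did not pass the test, and they are given here as values, chosen after those values were seen. Ealb_Met_P7_C5_SP6_2090632 was at −4.85, −5.43 and −5.17 in the acetone samples and at −9.22, −9.12 and −6.93 in culture, with 0 of 3 arrays well above background. Its acetone level was at least 3.16-fold higher (limma, adjusted p = 0.0668). Contig143 was at −5.10, −6.90 and −5.95 with acetone and at −8.97, −8.00 and −6.98 in culture (log2 difference 2.00, adjusted p = 0.0942). Neither probe overlapped between the groups.

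The other two varied between samples of 1 group by several log2 units. P2_B7_T7_1328934 was at −3.34, −1.30 and −2.90 in culture and at −10.11, −2.96 and −9.67 with acetone, where it was above background in replicate 2 alone. Its 3 water controls were at −9.93, −2.31 and −9.71, so that 1 sample per soil group was as bright as the culture worms and 2 were near the floor. P1_B11_T7_1328879 was at −4.88, −2.30 and −9.21 with acetone, at −0.70, −7.11 and −0.89 in culture and at −2.07, −2.35 and −8.89 in the water controls. Each of the 3 groups held at least 1 bright and 1 dim sample.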
